A study of Mus musculus with 9 samples.

Results

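The 41 genes described here are the members of a list of G1/S and DNA replication genes, which hold the proteins that take a cell from the first gap phase of the cell cycle (G1) into DNA synthesis (S phase) and those that copy the DNA. They were chosen by gene name, and each name was found once among the 54532 genes of the expression table, so all 41 were measured. The cells were BV2, a mouse microglial line that was immortalized with a retrovirus carrying the raf and myc oncogenes, and all 9 libraries are of this line. The study asked how histone lactylation acts in microglia during oxygen-glucose deprivation (OGD), and it used A-485, which blocks the acetyltransferase P300, to lower that mark. Messenger RNA was sequenced in 3 groups of 3 libraries. The control group, whose treatment is labelled normal, was kept in complete medium with 10% serum. The OGD group was moved to low-glucose medium with 4% serum at 4% O2, and the OGD + A-485 group had the same deprivation with the inhibitor. In the experiments that precede the sequencing, A-485 was given at 50 µM from the start of 24 h of OGD, and neither value is repeated for the sequenced cells. No group had A-485 without OGD, and the lower glucose, oxygen and serum of both deprived groups cannot be told apart. The labels do not say whether the libraries of a group are separate cultures, so the p-values measure only the spread between these samples, which may be technical.

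The values are FPKM as the authors gave them, that is, reads divided by the gene length and by a divisor of each library. The reads on genes numbered 12681228, 13653401 and 15594706 in the control libraries, 12593250, 12842430 and 14000875 in the OGD libraries and 15208237, 16091038 and 15126135 in the OGD + A-485 libraries. At this depth 1 read on a gene of 1 kb was worth between 0.0618 and 0.0786 FPKM. The members had between 13 and 7078 reads in a library, and all 41 passed the filter on low values, a mean of at least 0.2 FPKM over the 9 libraries, which 16123 genes passed. Their means over the 9 libraries ran from 1.70 FPKM (Fen1) to 126 FPKM (Pcna), and 28 of the 41 were above 10 FPKM. Mitochondrial genes took 1.82, 1.93 and 2.203% of the reads in the control libraries, 1.14, 1.28 and 1.17% in OGD and 1.66, 2.01 and 1.85% in OGD + A-485, and the part of this difference in the member values was not tested.

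The label of the cells was checked against 12 microglial markers, of which 11 passed the filter. Their summed level was 479.7, 488 and 471 FPKM in the control libraries, 605, 603 and 622 in OGD and 1109, 1080 and 1103 in OGD + A-485. The most abundant was Cd68, a lysosomal protein of phagocytes, and none was at 0 in all libraries, but Tmem119 averaged 1.40 FPKM in control and P2ry12 did not pass the filter. Of the 11, OGD had 5 called higher than control, against 11.2% of all genes tested, by the thresholds given below. OGD + A-485 had 8 called higher than OGD, against 12.2%. The part of these shifts in the member values was not tested. The 19 markers of astrocytes, neurons, oligodendrocytes, endothelial cells and fibroblasts summed to between 2.31 and 4.65 FPKM in a library. Among them, 17 stayed under 1 FPKM in every library, Mbp was the most abundant with a mean of 0.956 FPKM, and Aqp4, Mog, Olig2, Cldn5, Col1a2 and Dcn were listed at 0 throughout.

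In G1, D-type cyclins with Cdk4 phosphorylate the retinoblastoma protein, which then releases E2F factors, and these switch on cyclin E and many of the genes that prepare and copy DNA. The Mcm helicase is loaded onto origins by Cdc6 and Cdt1, is set in motion in S phase with Cdc45 and the GINS complex, and is followed by the polymerases, the sliding clamp, the ligase, the enzymes that make deoxynucleotides and the proteins that package the new DNA. Microglia of the healthy adult brain seldom divide, whereas BV2 cells keep dividing in culture.

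OGD was first set against control, which asks what the deprived medium and low oxygen did to these genes. Most of the listed members of the replication machinery were lower in OGD. The 2 members called higher, Cdkn1a and Cdkn1b, encode inhibitors of the kinases that start S phase. Of the 41 members, 32 were called lower, against 9.81% of the 16123 genes tested, and 2 were called higher, against 11.2%. A gene was called where its log2 fold change exceeded 0.5 in size and limma's p-value, before adjustment, was under 0.01, on log2(FPKM + 0.1), a scale that understates the change of low genes. The median log2 fold change of the members was -0.62, and over all genes tested it was 0.01. The summed FPKM of the members was 1448, 1434 and 1443 in the control libraries, 1033, 946 and 1043 in OGD and 986, 947 and 972 in OGD + A-485. Every control library thus stood above every library of the deprived groups, and the lowest OGD sum came from OGD replicate 2. In RNA from bulk cells, fewer cells in S phase and less of these RNAs per cell cannot be told apart.

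**Figure D1:**
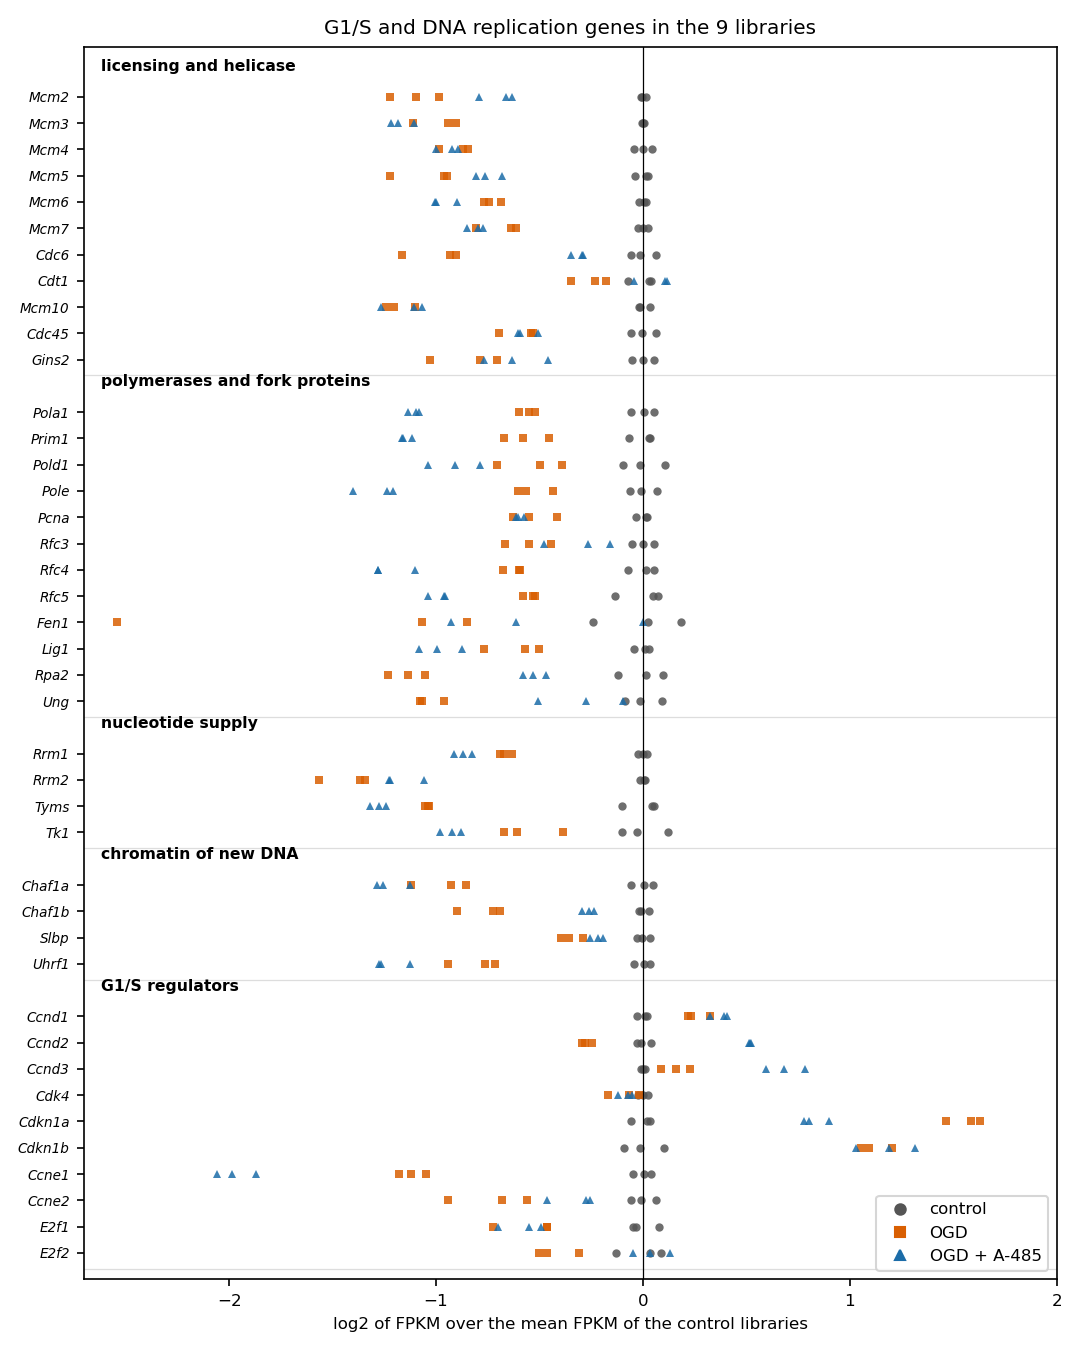
Each row is 1 member and each point 1 library, with the log2 of its FPKM over the mean of the 3 control libraries on the x axis. In OGD, 32 of the 41 members were called lower than control and Cdkn1a and Cdkn1b higher, while Ccne1 lies lowest in OGD + A-485.

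The plot of the 9 libraries is ordered by role and begins with licensing and the helicase. Of these 11 members, 10 were called lower in OGD, with a median log2 fold change of -0.90. The Mcm genes encode the subunits of the helicase ring that unwinds DNA ahead of the fork. Mcm2 was at 34.9, 34.9 and 35.4 FPKM in the control libraries, 16.4, 15.01 and 17.7 in OGD and 22.6, 22.2 and 20.2 in OGD + A-485. For Mcm3 the values were 113, 112 and 113 FPKM in control, 58.7, 52.1 and 60.2 in OGD and 52.3, 49.6 and 48.5 in OGD + A-485. Mcm4 measured 83.4, 80.96 and 86.1 FPKM in control, 45.6, 42.2 and 46.4 in OGD and 41.8, 44.9 and 44.02 in OGD + A-485. For these Mcm genes every OGD library was below every control library, and the control libraries lay close together. Mcm5 was at 67.5, 68.1 and 65.1 FPKM in the control libraries, 34.7, 28.7 and 34.4 in OGD and 41.7, 39.4 and 38.2 in OGD + A-485. For Mcm6 the values were 82.2, 83.7 and 84.1 FPKM in control, 49.8, 48.9 and 51.8 in OGD and 44.7, 41.7 and 41.5 in OGD + A-485. Mcm7 measured 48.4, 50.2 and 49.2 FPKM in control, 32.2, 28.2 and 31.7 in OGD and 28.4, 27.3 and 28.9 in OGD + A-485. Here too the control and OGD libraries did not overlap, and OGD replicate 2 was the lowest OGD library for each of these subunits. All 6 were called lower, with log2 fold changes from -1.10 (Mcm2, SE 0.06, limma adjusted p = 3.42e-06) to -0.68 (Mcm7, SE 0.05, adjusted p = 1.4e-05). Mcm7 shares 13.2% of its 75-base stretches with other genes, Gm5487 above all, and 7.25% of its exon bases overlap Ap4m1 on the opposite strand.

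The loaders of the helicase differed from each other. Cdc6 was at 13.1, 13.8 and 12.7 FPKM in the control libraries, 7.03, 5.88 and 6.89 in OGD and 10.8, 10.4 and 10.7 in OGD + A-485. For Cdt1 the values were 55.1, 55.5 and 51.3 FPKM in control, 45.96, 42.4 and 47.7 in OGD and 58.6, 52.3 and 58.1 in OGD + A-485. The control and OGD libraries stood apart for both, but the distance was small for Cdt1. Cdc6, the ATPase that recruits the helicase to origins, fell in OGD by a log2 fold change of -0.99 (SE 0.07, limma adjusted p = 9.41e-06). Cdt1, which works beside it and whose protein is destroyed once S phase begins, had a log2 fold change of -0.25 (SE 0.06, limma adjusted p = 0.00897) and was not called. Mcm10 measured 13.1, 12.7 and 12.6 FPKM in control, 5.95, 5.40 and 5.55 in OGD and 6.11, 5.93 and 5.33 in OGD + A-485. Mcm10, which helps to set the loaded helicase in motion, fell furthest of the 11, by a log2 fold change of -1.17. Cdc45, a partner of the moving helicase, averaged 33.2 ± 1.38 FPKM in control and 22.1 ± 1.40 FPKM in OGD (SD, n = 3), and Gins2, a subunit of the GINS complex, 8.27 ± 0.296 FPKM and 4.64 ± 0.526 FPKM. Both were called lower, but 67.3% of the exon bases of Gins2 also lie in Gse1, a gene of the opposite strand. Whether strand entered the counting is not given in the sources used here, so reads of the pair cannot be told apart.

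E2F factors bind short words in promoters, so the RefSeq promoters of the members (250 bases before to 50 after a start, build GRCm38.p6) were searched for TTTCCCGC, TTTCGCGC, TTTGCCGC and TTTGGCGC on both strands. A promoter was matched for 35 of the 41 members; Mcm4, Gins2, Pole, Ccnd1, Ccnd2 and Ccne2 had none. Where a gene has several promoters, the one nearest the 5′ end of the gene was used. The RefSeq starts of Mcm7, E2f1 and Cdc6 lay 539, 466 and 350 bases inside the gene from its annotated 5′ end. Their windows do not cover that end, and the shares below include them. An E2F word was found in 10 of the 35 (28.6%), and 406 (4.16%) of the 9751 tested genes with a promoter have one. Of other replication genes 12 of 39 had a word and of other G1/S regulators 8 of 20. Of the licensing and helicase members 6 of 9 had a word, of the polymerases and fork proteins 3 of 11, of the regulators 1 of 7, and none of 4 in nucleotide supply or of 4 in chromatin of new DNA, but a further promoter of Uhrf1 and a further promoter of Lig1 hold one. Those of the 10 members are shown, as E2F factors switch on many genes of this kind; each reads 5′ to 3′ on the strand of its gene, with up to 20 bases on either side and the E2F words in capitals. They lie at chr1:20820263-20820313 on the minus strand (Mcm3), chr8:75109336-75109387 on the plus strand (Mcm5), chr1:128359784-128359835 on the minus strand (Mcm6), chr5:138172021-138172068 on the minus strand (Mcm7), chr11:98907993-98908040 on the plus strand (Cdc6) and chr8:122568027-122568064 on the plus strand (Cdt1). The others lie at chrX:93632266-93632313 on the minus strand (Pola1), chr7:44548766-44548796 on the minus strand (Pold1), chr5:151651181-151651238 on the minus strand (Rfc3) and chr4:136172293-136172323 on the plus strand (E2f2).
Mcm3: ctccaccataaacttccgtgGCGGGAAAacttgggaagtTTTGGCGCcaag
Mcm5: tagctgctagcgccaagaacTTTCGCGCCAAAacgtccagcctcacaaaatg
Mcm6: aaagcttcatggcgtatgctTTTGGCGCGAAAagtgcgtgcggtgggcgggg
Mcm7: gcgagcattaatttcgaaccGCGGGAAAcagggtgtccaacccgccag
Cdc6: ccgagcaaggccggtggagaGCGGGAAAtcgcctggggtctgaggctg
Cdt1: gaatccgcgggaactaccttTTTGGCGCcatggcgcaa
Pola1: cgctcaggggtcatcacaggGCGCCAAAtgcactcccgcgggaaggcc
Pold1: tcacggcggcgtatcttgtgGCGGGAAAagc
Rfc3: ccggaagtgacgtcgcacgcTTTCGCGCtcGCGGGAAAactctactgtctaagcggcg
E2f2: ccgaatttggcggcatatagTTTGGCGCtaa
GCGGGAAA and GCGCCAAA are the words TTTCCCGC and TTTGGCGC read on the other strand. In Mcm5 and Mcm6 a word on each strand overlaps the other, so that 12 letters hold both. Mcm3 and Rfc3 have 2 words close together in 1 window. The promoters of Mcm6 and Mcm7 each hold 1 more word outside the printed window, TTTGGCGC at -47 and TTTCGCGC at 16 from the start. In OGD, 8 of these 10 genes were called lower, beside 32 of all 41 members, and a link between the word and the change was not tested. The word CCAAT was found in 19 of the 35 promoters (54.3%, against 39.1% of the tested genes) and GGGCGG in 24 (68.6%, against 62.8%), both strands searched. A match describes letters in a window and is not a measured binding site.

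**Figure D2:**
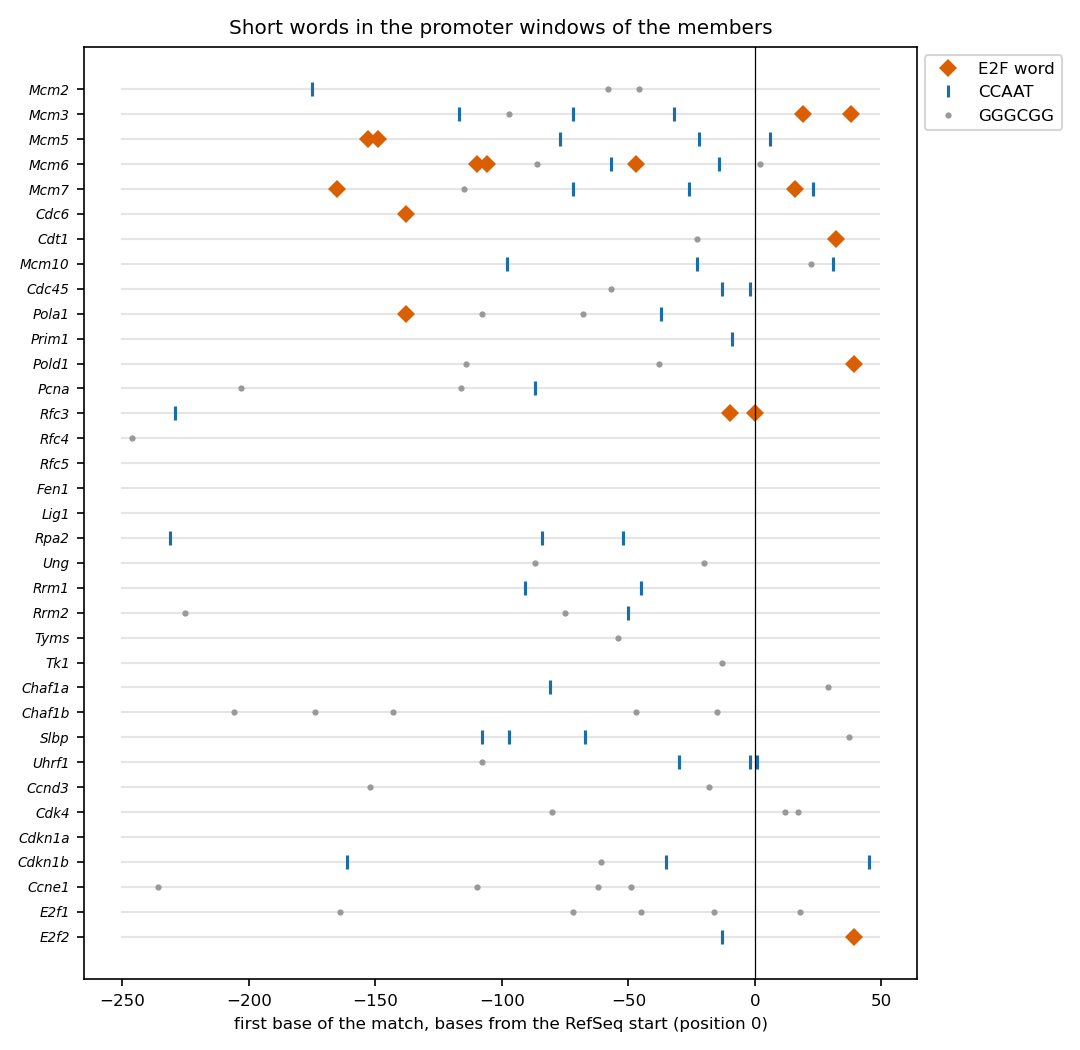
Each line is the promoter window of 1 of the 35 members with a RefSeq promoter, in bases from the start (position 0), and each mark is the first base of a matching word. E2F words lie in 10 of the 35, among them Mcm3, Mcm5, Mcm6, Mcm7, Cdc6 and Cdt1 at the top, and CCAAT in 19.

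All 12 members among the polymerases and fork proteins were called lower in OGD, with a median log2 fold change of -0.56. Pcna is the sliding clamp that holds polymerases on the DNA and was the most abundant member. Pcna was at 162, 157 and 162 FPKM in the control libraries, 120.3, 104 and 109 in OGD and 105, 106 and 108 in OGD + A-485. The OGD libraries were all below the control libraries, and the log2 fold change was -0.53 (SE 0.05, limma adjusted p = 5.51e-05); 13.8% of its 75-base stretches are shared with other genes, the pseudogene Pcna-ps2 above all. For Rpa2 the values were 23.1, 19.8 and 21.8 FPKM in control, 9.82, 9.19 and 10.4 in OGD and 14.4, 14.9 and 15.6 in OGD + A-485. Rpa2, a subunit of the protein that coats single-stranded DNA, was lower in every OGD library than in any control library and fell by a log2 fold change of -1.13 (SE 0.07, limma adjusted p = 3.89e-06). Ung measured 6.58, 6.12 and 5.83 FPKM in control, 3.18, 2.95 and 2.93 in OGD and 5.78, 4.35 and 5.10 in OGD + A-485. Ung removes uracil from DNA, and its OGD libraries also stood apart from control, with a log2 fold change of -1.01.

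Of the polymerase subunits, Pole is the catalytic subunit that copies the leading strand. Pole was at 13.2, 14.4 and 13.6 FPKM in the control libraries, 9.28, 9.04 and 10.2 in OGD and 5.83, 5.96 and 5.21 in OGD + A-485. For Rfc4 the values were 39.5, 42.03 and 43.2 FPKM in control, 26.03, 27.6 and 27.5 in OGD and 17.1, 17.1 and 19.4 in OGD + A-485. Rfc4, a subunit of the clamp loader, and Pole both fell in OGD without overlap between the groups, by log2 fold changes of -0.62 and -0.53. Fen1 measured 2.44, 2.03 and 2.73 FPKM in control, 1.33, 0.412 and 1.14 in OGD and 2.40, 1.57 and 1.26 in OGD + A-485. Fen1, the nuclease that trims the flaps of Okazaki fragments, had the lowest level of the members, 13 to 107 reads in a library, and OGD replicate 2 lay far below the others. It was called lower (log2 fold change -1.36, SE 0.38, limma adjusted p = 0.0182), but 78.8% of its exon bases overlap Gm10143 on the other strand. The primase subunit Prim1 and the catalytic subunit Pola1, which make the first stretch of each new strand, averaged 19.5 ± 0.763 FPKM and 12.8 ± 0.498 FPKM in control and 13.2 ± 1.01 FPKM and 8.70 ± 0.234 FPKM in OGD (SD, n = 3). Pold1, the catalytic subunit of the lagging-strand polymerase, averaged 29.3 ± 2.10 FPKM in control and 20.3 ± 2.22 FPKM in OGD, and the ligase Lig1 38.0 ± 0.978 FPKM and 24.9 ± 2.35 FPKM. The clamp-loader subunits Rfc3 and Rfc5 averaged 5.71 ± 0.209 FPKM and 22.1 ± 1.70 FPKM in control and 3.89 ± 0.302 FPKM and 15.2 ± 0.319 FPKM in OGD.

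The 4 members of nucleotide supply were all called lower in OGD, with a median log2 fold change of -0.84. Rrm2 is the small subunit of ribonucleotide reductase, the enzyme that turns ribonucleotides into deoxyribonucleotides, and lies at chr12:24708241-24714146 (ENSMUSG00000020649, plus strand, build GRCm38). Rrm2 was at 45.1, 44.3 and 44.9 FPKM in the control libraries, 17.4, 15.1 and 17.6 in OGD and 19.2, 21.5 and 19.1 in OGD + A-485. The control libraries were within 1 FPKM of each other and the OGD libraries far below them, and the log2 fold change of -1.42 (SE 0.07, limma adjusted p = 1.36e-06) was the lowest of the 41. For Tyms the values were 9.06, 10.03 and 10.1 FPKM in control, 4.75, 4.69 and 4.73 in OGD and 3.90, 4.11 and 4.02 in OGD + A-485. Thymidylate synthase, which Tyms encodes, makes the thymidine nucleotide anew, and its OGD libraries lay close together below control (log2 fold change -1.03). The large reductase subunit Rrm1 averaged 28.1 ± 0.402 FPKM in control and 17.7 ± 0.378 FPKM in OGD, and the salvage enzyme Tk1, thymidine kinase, 14.8 ± 1.17 FPKM and 10.2 ± 1.08 FPKM (SD, n = 3).

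Of the 4 members that package or mark new DNA, 3 were called lower in OGD, with a median log2 fold change of -0.78. Uhrf1 measured 82.2, 77.99 and 80.6 FPKM in control, 47.2, 41.8 and 48.96 in OGD and 36.8, 33.2 and 33.4 in OGD + A-485. Uhrf1 binds hemimethylated DNA and brings the maintenance methyltransferase to it, and it fell without overlap by a log2 fold change of -0.80 (SE 0.06, limma adjusted p = 1.77e-05). Chaf1a was at 15.7, 15.3 and 14.6 FPKM in the control libraries, 7.99, 6.99 and 8.41 in OGD and 6.97, 6.36 and 6.24 in OGD + A-485. Chaf1a, the large subunit of the chromatin assembly factor that places histones behind the fork, fell by -0.96, again without overlap, and 52.5% of its exon bases overlap Ubxn6 on the opposite strand. Its partner Chaf1b averaged 15.9 ± 0.269 FPKM in control and 9.35 ± 0.699 FPKM in OGD (SD, n = 3). For Slbp the values were 9.01, 9.17 and 9.40 FPKM in control, 6.98, 7.52 and 7.17 in OGD and 7.90, 8.05 and 7.71 in OGD + A-485. Slbp, which binds the stem-loop of the histone messages of S phase, was lower in each OGD library than in any control library but was not called (log2 fold change -0.34, limma adjusted p = 0.000387).

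The 10 regulators did not move as a block in OGD: 2 were called higher and 3 lower, and their median log2 fold change was -0.18. Cdkn1a and Cdkn1b encode inhibitors of cyclin-dependent kinases, and Cdkn1a is also a target gene of p53. Cdkn1a measured 30.7, 30.4 and 28.8 FPKM in control, 92.6, 82.7 and 89.98 in OGD and 52.2, 51.3 and 55.9 in OGD + A-485. Cdkn1b was at 4.29, 4.53 and 4.91 FPKM in the control libraries, 9.77, 10.5 and 9.51 in OGD and 9.34, 10.4 and 11.4 in OGD + A-485. For both, the OGD libraries all stood above the control libraries. Cdkn1a (ENSMUSG00000023067, chr17:29090976-29100727, plus strand) rose by a log2 fold change of 1.56 (SE 0.05, limma adjusted p = 2.91e-07), the highest of the 41 members, and Cdkn1b by 1.10 (SE 0.08, limma adjusted p = 1.31e-05). For Ccne1 the values were 45.9, 43.2 and 44.8 FPKM in control, 21.6, 19.7 and 20.6 in OGD and 11.3, 10.7 and 12.2 in OGD + A-485. Ccne1, a cyclin E that drives Cdk2 into S phase (ENSMUSG00000002068, chr7:38097984-38107534, minus strand), fell by a log2 fold change of -1.11 (SE 0.06, limma adjusted p = 1.75e-06), and its 3 groups were apart from one another. Ccne2 measured 7.39, 7.13 and 7.76 FPKM in control, 5.03, 4.64 and 3.86 in OGD and 5.39, 6.21 and 6.13 in OGD + A-485. E2f1 was at 29.98, 27.5 and 27.7 FPKM in the control libraries, 20.5, 17.2 and 20.6 in OGD and 20.1, 17.4 and 19.4 in OGD + A-485. For E2f2 the values were 6.76, 6.53 and 5.83 FPKM in control, 4.62, 4.50 and 5.14 in OGD and 6.98, 6.17 and 6.54 in OGD + A-485. Ccne2, the other cyclin E, fell by -0.71 and E2f1, an activating E2F factor, by -0.55, both without overlap. E2f2, which acts beside E2f1, was also lower in each OGD library than in any control library but was not called (log2 fold change -0.42, limma adjusted p = 0.00282).

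The D-type cyclins and their kinase partner were not called in OGD. Ccnd1 measured 41.9, 42.1 and 40.8 FPKM in control, 48.8, 48.4 and 52.1 in OGD and 54.6, 52.1 and 55.2 in OGD + A-485. Ccnd2 was at 33.2, 32.6 and 34.2 FPKM in the control libraries, 27.2, 27.4 and 28.1 in OGD and 47.7, 47.6 and 47.9 in OGD + A-485. For Ccnd3 the values were 17.1, 17.2 and 16.98 FPKM in control, 19.1, 18.2 and 20.04 in OGD and 29.4, 25.8 and 27.4 in OGD + A-485. Ccnd1 and Ccnd3 were above control in every OGD library and Ccnd2 below it, with log2 fold changes of 0.26, 0.16 and -0.27. Cdk4 measured 84.6, 83.2 and 86.1 FPKM in control, 80.9, 75.3 and 83.4 in OGD and 81.6, 77.98 and 80.5 in OGD + A-485. The control and OGD libraries of Cdk4 overlapped, and its log2 fold change was -0.09 (SE 0.04, limma adjusted p = 0.144); 19.7% of its exon bases overlap Tspan31 on the other strand. In Ccnd1, 23.4% overlap LTO1, which averaged 1.47 FPKM. Smaller overlaps on the opposite strand include those of Ccne2 with Ints8 (17.4%, 3.53 FPKM), Rfc4 with Eif4a2 (12.6%), which at 63.4 FPKM was above Rfc4 itself, Rfc5 with Wsb2 (10.7%, 19.7 FPKM), Slbp with Gm10459 (7.80%, 0 FPKM) and Cdkn1a with AC167363.2 (7.68%, 1.25 FPKM). Those of Cdc45 with Ufd1 (5.96%, 10.8 FPKM), Ccnd3 with Bysl (4.11%, 16.4 FPKM), Lig1, Ccnd2, Tk1 and Pole were smaller still.

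**Figure D3:**
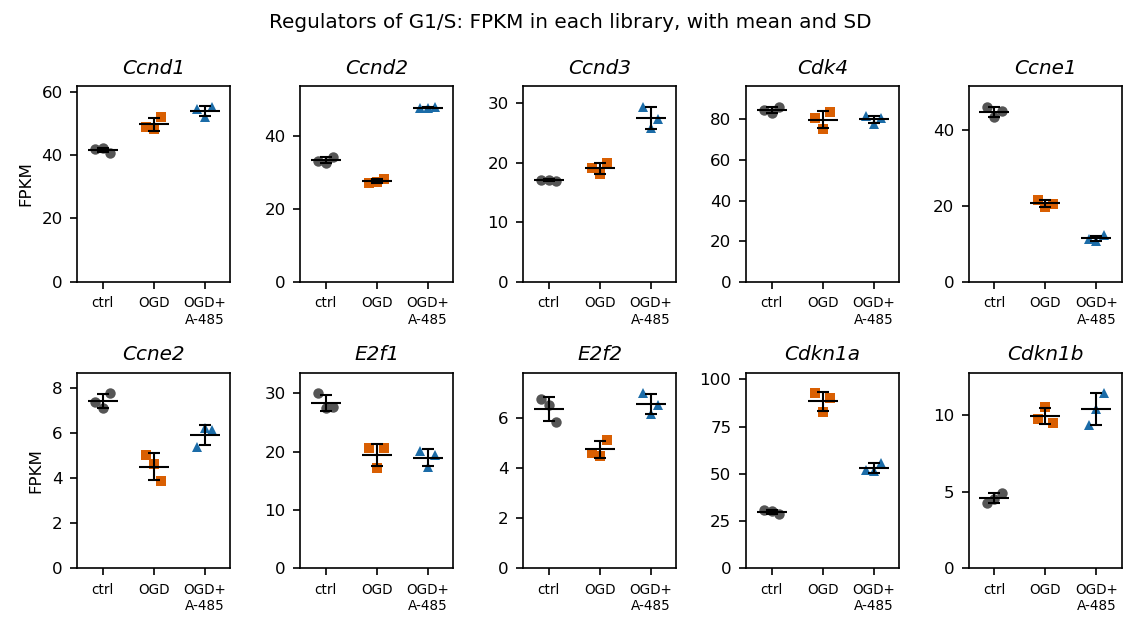
FPKM of the 10 regulators (y axes from 0) in the 3 libraries of each group, with the group mean and SD as bars. Cdkn1a is highest in OGD (82.7 to 92.6 FPKM), Ccnd2 is highest in OGD + A-485 (47.6 to 47.9 FPKM), and Ccne1 steps down from control through OGD to OGD + A-485.

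Some of the called falls depended on single libraries. Without OGD replicate 2 the number called lower in OGD was 27, because Pcna (log2 fold change -0.48), E2f1 (-0.46), Pold1 (-0.44), Tk1 (-0.49) and Pole (-0.49) then missed the fold threshold. Pold1 (-0.47) and Pole (-0.49) missed it without control replicate 2, Rfc5 (-0.50) without control replicate 3, Tk1 (-0.49) without control replicate 1 and Rfc3 (-0.49) without OGD replicate 1. Fen1 lost its call without control replicate 1 (-1.34), 2 (-1.47) or 3 (-1.26) and without OGD + A-485 replicate 2 (-1.36), through its p-value, and over all libraries left out its value ran from -1.64 to -0.90, the latter without OGD replicate 2. With the median of the 50 nearest genes on the chromosome removed, Rfc4 (-0.42), Cdc45 (-0.41), Pole (-0.435) and Rfc3 (-0.40) were not called and E2f2 (-0.61) was called lower.

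Other genes of the same machinery were taken from 2 further lists. Of 51 other replication genes, all of which passed the filter, 31 were called lower in OGD and 1 higher, with a median log2 fold change of -0.67. The lowest were Asf1a, a histone chaperone, with group means of 1.73 FPKM in control and 0.580 in OGD (log2 fold change -1.50), and Exo1, a nuclease of replication and repair, with 7.55 and 2.84 (-1.38). The highest was Pold4, the smallest subunit of the lagging-strand polymerase, which rose from 12.6 to 31.8 FPKM (log2 fold change 1.33, limma adjusted p = 1.55e-06). Next to it came the origin-complex subunit Orc3, not called, at 8.92 and 9.54 FPKM. Of 26 other G1/S regulators, 24 passed the filter, E2f7 and Mycn being listed at 0, and 9 were called lower and 4 higher, with a median of -0.31. Cdc25a, the phosphatase that activates Cdk2, fell from 9.71 to 4.67 FPKM (-1.04) and the repressor E2f8 from 10.6 to 5.24 FPKM (-1.01). Myc rose from 0.862 to 2.83 FPKM (1.61) and the kinase inhibitor Cdkn1c from 1.97 to 3.88 FPKM (0.94).

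The comparison of OGD + A-485 with OGD asks what the inhibitor added during deprivation, and it shares the OGD libraries with the comparison above, so the values of each are given side by side and no relation between them was tested. Few members were called here: Ccnd2, Ccnd3 and 4 genes of replication and its chromatin were higher with A-485, and Ccne1, Cdkn1a and 4 genes of the polymerases and the clamp loader were lower. Of the 41 members, 6 were called higher, against 12.2% of the 16123 genes tested, and 6 were called lower, against 13.4%, so neither share stood far from that of all genes. The members called higher and lower were 5 and 7 with quantile normalization, 4 and 8 with FPKM rescaled to the same sum per library and 3 and 8 with the median of the 50 nearest genes removed. The median log2 fold change was 0.00 for the members and 0.01 for all genes tested, and with the rescaled FPKM the members' median was -0.09. By role, the medians were 0.04 for licensing and helicase, -0.37 for polymerases and fork proteins, -0.22 for nucleotide supply, -0.06 for chromatin of new DNA and 0.09 for the regulators. With the same FPKM sum per library those of licensing and helicase and of the regulators were -0.06 and -0.01, so their sign depends on the scaling.

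**Figure D4:**
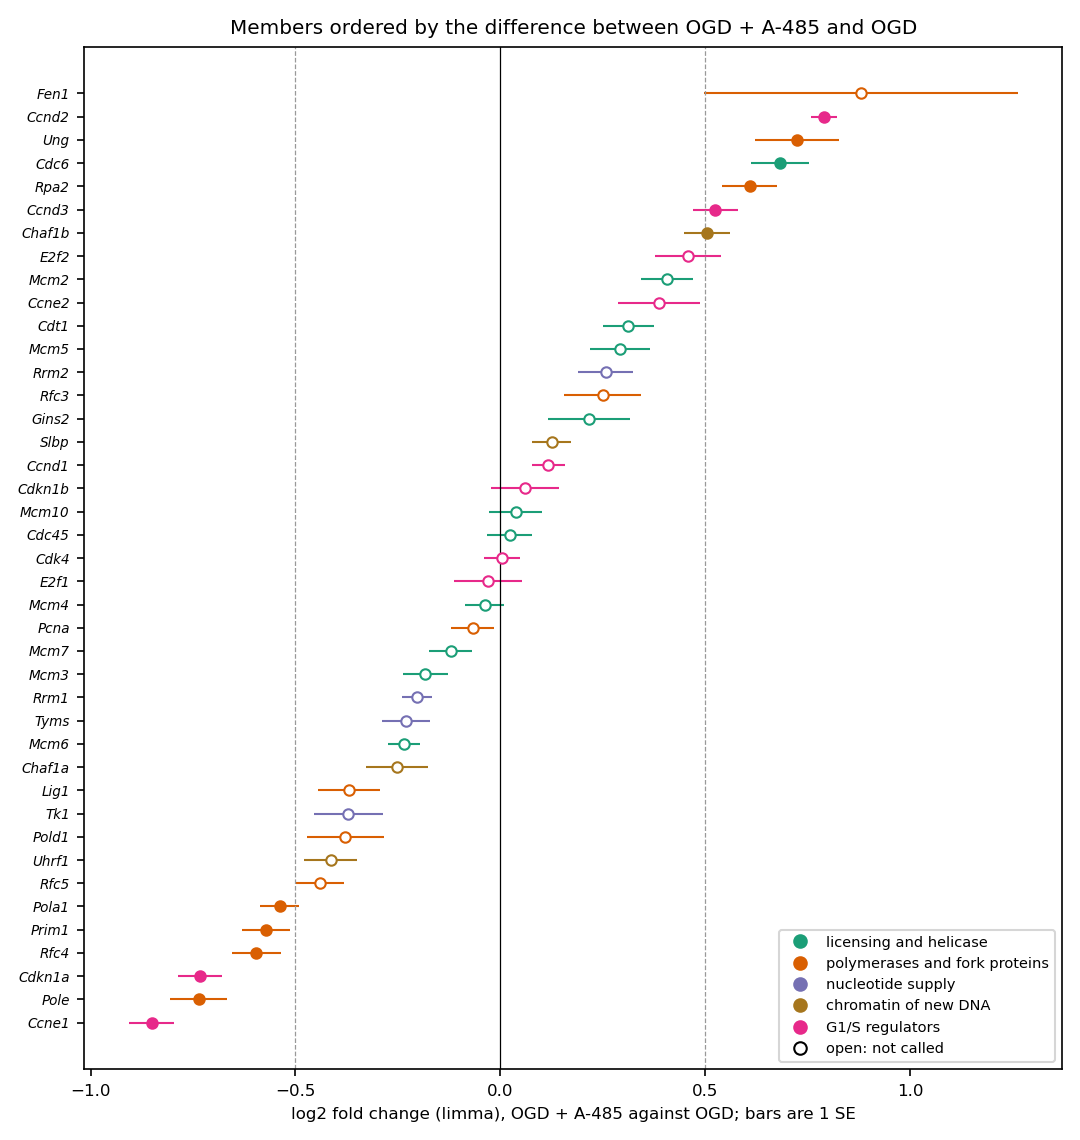
Log2 fold change of each of the 41 members between OGD + A-485 and OGD (x axis), ordered by value and coloured by role, with bars of 1 SE from limma; filled points were called and dashed lines mark the fold threshold of 0.5. The 6 called higher reach from 0.50 (Chaf1b) to 0.79 (Ccnd2) and the 6 called lower from -0.85 (Ccne1) to -0.54 (Pola1), and values near 0 such as Cdk4, Cdc45, Mcm10, Cdkn1b, E2f1 and Ccnd1 change sign with the normalization or the libraries used.

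In the plot of ordered fold changes, Ccnd2 had the largest value of the members called higher with A-485, and Ccnd3 was called as well. Ccnd2, at 47.6 to 47.9 FPKM in OGD + A-485 and 27.2 to 28.1 in OGD, rose by a log2 fold change of 0.79 (SE 0.03, limma adjusted p = 2.53e-07) and was also called higher than in control. Its 50 nearest genes on the chromosome had a median log2 fold change of 0.37, and with that median removed its log2 fold change was 0.42 and it was not called. Ccnd3 rose by 0.52 (SE 0.05, limma adjusted p = 5.93e-05), without overlap between the groups. Its call is a narrow one, and it was lost without OGD replicate 2 (0.49) or OGD + A-485 replicate 1 (0.48), with quantile normalization (0.45) and with the same FPKM sum per library (0.43). Ccnd1 had a log2 fold change of 0.12 and was not called.

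Cdc6, Rpa2, Ung and Chaf1b, which had fallen in OGD, were higher with A-485 than without it, each without overlap with the OGD libraries. Cdc6 rose by a log2 fold change of 0.68 (SE 0.07, limma adjusted p = 5.8e-05) to between 10.4 and 10.8 FPKM, still below the control libraries. Ung rose by 0.72 (SE 0.10, limma adjusted p = 0.000386), Rpa2 by 0.61 (SE 0.07, limma adjusted p = 8.39e-05) and Chaf1b by 0.50 (SE 0.06, limma adjusted p = 8.83e-05). Chaf1b stood at the edge of the fold threshold and lost its call without OGD replicate 2 (0.44) or OGD + A-485 replicate 2 (0.49), with quantile normalization (0.49), with the same FPKM sum per library (0.41) and with pseudocount 1 (0.47). With the median of the 50 nearest genes removed, Rpa2 (0.43), Chaf1b (0.43) and Ccnd3 (0.47) were not called either, which with Ccnd2 and the gain of E2f2 (0.53) left 3 members called higher. E2f2 missed the threshold at 0.46 with all libraries, and it passed without OGD replicate 3 (0.51) or OGD + A-485 replicate 2 (0.50) and with quantile normalization (0.50). Fen1 had the value 0.88, but an SE of 0.38 and a limma adjusted p of 0.0877, and it was not called. With 1 library left out its value ran from 0.42 (without OGD replicate 2) to 1.16 (without OGD replicate 1).

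The members called lower with A-485 were Ccne1, Cdkn1a and 4 genes of the polymerases and the clamp loader. Ccne1 lay between 10.7 and 12.2 FPKM in OGD + A-485 and between 19.7 and 21.6 in OGD, and its log2 fold change was -0.85 (SE 0.06, limma adjusted p = 3.66e-06). Cdkn1a lay between 51.3 and 55.9 FPKM, below OGD and above control, and its log2 fold change against OGD was -0.73 (SE 0.05, limma adjusted p = 6.66e-06). Cdkn1b, the other inhibitor, had a log2 fold change of 0.06 and overlapping groups. Pole had a log2 fold change of -0.74 (SE 0.07, limma adjusted p = 3.43e-05), Rfc4 of -0.60, Prim1 of -0.57 and Pola1 of -0.54. Prim1 averaged 8.80 ± 0.161 FPKM and Pola1 5.96 ± 0.113 FPKM in OGD + A-485 (SD, n = 3), below every OGD library. The other fork proteins Rfc5 (-0.44), Pold1 (-0.38) and Lig1 (-0.37) lay below OGD without overlap and were not called, with means of 11.2, 15.6 and 19.2 FPKM. With the median of the neighbouring genes removed Lig1 (-0.53), Pold1 (-0.52) and Tk1 (-0.57) were called lower and Pola1 (-0.45) was not, and Pola1 also lost its call with pseudocount 1 (-0.48). With the same FPKM sum per library Rfc5 (-0.53) was called lower.

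The remaining members were not called between the deprived groups. Among the Mcm genes the log2 fold changes ran from -0.24 (Mcm6) to 0.41 (Mcm2), and the OGD + A-485 libraries stood above OGD for Mcm2 and Mcm5, below it for Mcm6, and overlapped it for Mcm3, Mcm4 and Mcm7. Cdt1 (0.31), Ccne2 (0.39) and Rrm2 (0.26) stood above OGD without overlap, and Tyms (-0.23), Rrm1 (-0.20) and Tk1 (-0.37) below it. Chaf1a had a log2 fold change of -0.25, below OGD without overlap. Uhrf1 had a log2 fold change of -0.41 and was called lower with quantile normalization (-0.52) and with the same FPKM sum per library (-0.51). Its 50 nearest genes, and those of Chaf1a on the same chromosome, had medians of -0.37 and -0.32, and whether the neighbourhood has a part in these values was not tested. Slbp (0.12) was slightly above OGD in every library. Gins2 (0.22), Rfc3 (0.25), Pcna (-0.07), Mcm10 (0.04), Cdc45 (0.02), E2f1 (-0.03) and Cdk4 (0.00) overlapped OGD.

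Against control, OGD + A-485 had 26 members called lower, against 16.6% of the 16123 genes tested, and 4 called higher, against 17.0%. The median log2 fold change was -0.69 for the members and 0.02 for all genes tested. This comparison shares its libraries with both others. Ccne1 was the lowest member (log2 fold change -1.96, SE 0.06, limma adjusted p = 2.72e-08), followed by Pole (-1.27), Tyms (-1.26), Uhrf1 (-1.22), Rfc4 (-1.21) and Chaf1a (-1.21). The 4 called higher were Cdkn1b (1.16), Cdkn1a (0.82), Ccnd3 (0.68) and Ccnd2 (0.52). All 4 members of nucleotide supply were called lower (median -1.04), as were 9 of the 11 of licensing and helicase (median -0.75), 9 of the 12 polymerases and fork proteins (median -0.94) and 2 of the 4 of chromatin of new DNA (median -0.73). Among the regulators, 4 were called higher and 2, Ccne1 and E2f1, lower.

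The 11 members not called against control in this comparison were Cdc6 (-0.31), Cdt1 (0.06), Rfc3 (-0.29), Fen1 (-0.48), Ung (-0.29), Chaf1b (-0.26), Slbp (-0.22), Ccnd1 (0.37), Cdk4 (-0.08), Ccne2 (-0.33) and E2f2 (0.04). Cdt1, E2f2 and Fen1 overlapped the control libraries, and the signs of the values of Cdt1 and E2f2 turned with the same FPKM sum per library (-0.10 and -0.12). Rescaling to the same sum moved the median of all genes tested by -0.15, and the calls over all genes were then 2072 higher and 3657 lower, where they were 2747 and 2684 with the authors' scaling. For OGD + A-485 against OGD the same rescaling gave 1549 higher and 2645 lower, against 1974 and 2165. With the rescaled values the members' median against control was -0.85, beside -0.13 for all genes tested, and 26 were called lower and 3 higher, Ccnd2 (0.36) being the one lost, as it was with quantile normalization (0.43). Rpa2 lost its call without control replicate 1 (-0.47) or OGD + A-485 replicate 1 (-0.49) and with pseudocount 1 (-0.50). With the median of the neighbouring genes removed Ccnd2 (0.25), Cdc45 (-0.45) and E2f1 (-0.39) were not called and Cdc6 (-0.51) was called lower.

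With the authors' scaling and all libraries, the pattern over the 3 comparisons sorts the members into 9 sets. The largest holds 20 members that were called lower in both deprived groups against control and not called between them, among them Mcm2 to Mcm7, Mcm10, Pcna, Rrm1, Rrm2, Tyms, Tk1 and E2f1. Pola1, Prim1, Pole, Rfc4 and Ccne1 were called lower in all 3. Cdc6, Ung and Chaf1b were called lower in OGD, higher with A-485 than in OGD and not called between OGD + A-485 and control, while Rpa2 was called lower there too. Rfc3, Fen1 and Ccne2 were called only in OGD against control. Ccnd2 and Ccnd3 were called higher in OGD + A-485 against both other groups, Cdkn1a was called higher in both deprived groups and lower with A-485 than in OGD, and Cdkn1b higher in both and not called between them. Cdt1, Slbp, Ccnd1, Cdk4 and E2f2 were called in none of the 3.

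The lists beside the members show how far other genes of the cell cycle moved. Among the 51 other replication genes, 1 was called higher and 9 lower in OGD + A-485 against OGD (median -0.07). The helicase-related Mcm8 fell from 9.90 to 4.32 FPKM (log2 fold change -1.18) and the fork-protection factor Tipin from 39.2 to 22.97 (-0.77). Wdhd1, which tethers the primase polymerase to the helicase, rose from 4.93 to 8.30 FPKM (0.74), and the polymerase subunit Pole4, not called, was at 9.36 and 13.1. Of the 24 other G1/S regulators tested, 2 were called higher and 6 lower (median -0.16), with the kinase inhibitors Cdkn2b (12.3 to 1.97 FPKM, -2.59) and Cdkn1c (3.88 to 1.19, -1.63) lowest and the inhibitor Cdkn2c (1.94 to 3.23, 0.71) and the ubiquitin ligase subunit Skp2 (4.82 to 7.23, 0.58) highest. With the same FPKM sum per library none of these regulators was called higher and 8 were called lower (median -0.26). Their highest log2 fold change was then 0.61, above the fold threshold, so that gene missed its call through the p-value. With quantile normalization 2 were called higher and 6 lower (median -0.13). The calls of Cdkn2c and Skp2 thus depend on the scaling. Of the other replication genes, 1 was called higher and 11 lower with the same FPKM sum per library (median -0.16). Against control, OGD + A-485 had 34 of the 51 other replication genes called lower and 1 higher (median -0.74), and 13 of the 24 other regulators lower and 3 higher (median -0.61). Gins1 (-1.68), Topbp1 (-1.48), Cdkn2b (-2.22) and Tfdp2 (-2.17) were lowest and Pold4 (1.58), Cdkn2c (1.45) and Myc (1.18) highest, with Mcm9 (0.05) not called.

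Genes of G2 and mitosis, the later phases of the cycle, were taken as another list. In OGD, 22 of its 35 genes were called lower and none higher, with a median log2 fold change of -0.59 beside -0.62 for the members. In OGD + A-485 against OGD, 26 were called lower and none higher, with a median of -0.75 beside 0.00 for the members, and whether the lists differ was not tested. Its summed level was 1142, 1142 and 1183 FPKM in the control libraries, 797, 781 and 817 in OGD and 475, 453 and 433 in OGD + A-485, so the 3 groups were apart, whereas the summed levels of the members overlapped between both deprived groups. The mitotic cyclin Ccnb2 fell from 50.9 to 18.6 FPKM with A-485 (-1.44) and the phosphatase Cdc25b from 34.7 to 13.3 (-1.37), while Mad2l1 (-0.06) and Foxm1 (-0.15) were not called. Of its promoters, 1 of 30 held an E2F word and 24 of 30 held CCAAT.

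**Figure D5:**
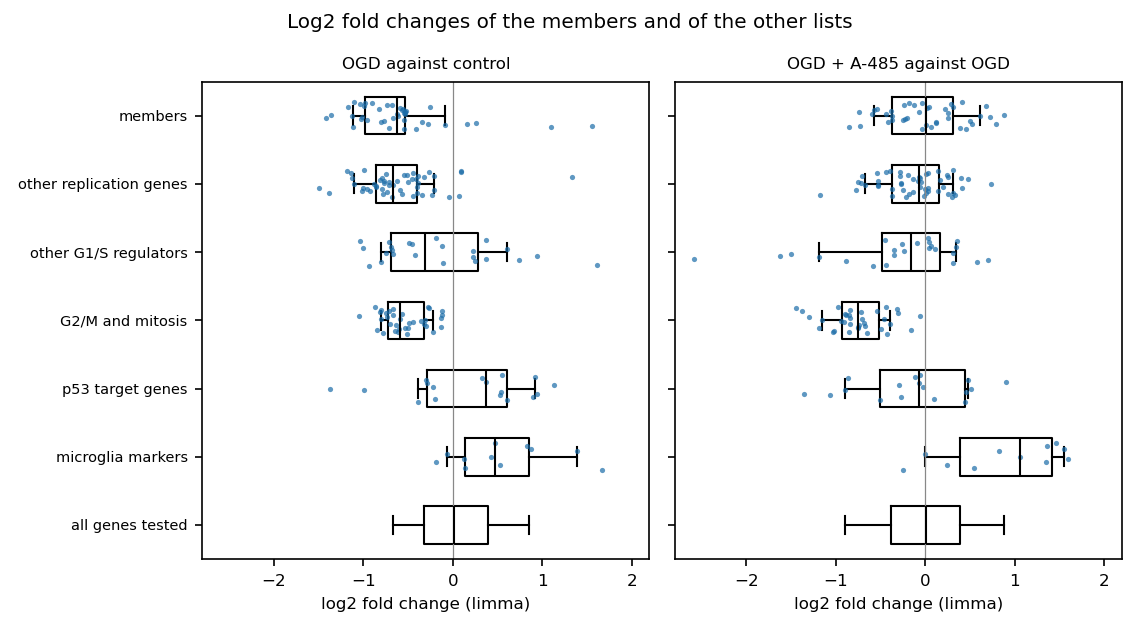
Log2 fold changes from limma (x axes) of the tested genes of each list, 1 point a gene, in OGD against control and OGD + A-485 against OGD; boxes give quartiles and medians and whiskers the 10th and 90th percentiles, and all genes tested are drawn without points. The members have medians of -0.62 and 0.00 and the genes of G2 and mitosis -0.59 and -0.75.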

How the data were processed

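RNA of 9 libraries of the BV2 line was prepared with an RNeasy kit and a SMARTER mRNA-seq kit, per the labels. The paper instead states that the samples were stored in Trizol, and it names neither kit. Each library was put in its group by its title and treatment. The authors removed low-quality reads, counted reads per gene with featureCounts, computed FPKM from gene length and read count, and tested with DESeq2. They deposited the FPKM of 54532 genes with lengths and coordinates. The submitters' processing notes name the builds GRCm38 and mm10. The aligner, the annotation release and whether the counting used strand are not given in the sources used here. Of the gene identifiers, 98.3% had the coordinates of GENCODE M21, all 41 members included. Undoing the division by gene length and library gave whole reads, within 0.01 read, for 100% of the values above 0, and so the depth.

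From the deposited FPKM, genes averaging 0.2 FPKM or more over the 9 libraries were kept (16123), and limma 3.58.1 (R 4.3.3) was run on log2(FPKM + 0.1), with a trended prior variance and 1 mean for each group. Calls used the study's thresholds, a log2 fold change above 0.5 in size with a p-value under 0.01 before adjustment, and p-values were adjusted by Benjamini-Hochberg over all genes tested. The fit was tested on simulated data. Lists are described by counts called, medians and sums, with no test of a list. The members and lists were chosen with earlier results of these data known.

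All members are accounted for. Values in every library are given for Mcm2 to Mcm7, Cdc6, Cdt1, Pcna, Rrm2, Tyms, Ung, Uhrf1, Slbp, the D and E cyclins, E2f1, E2f2, Cdk4, Cdkn1a, Cdkn1b and the 3 other members with the largest absolute log2 fold change in each comparison, and the others are given by group means. From each other list the 2 highest and 2 lowest tested genes of the comparison described are named. The alternatives were a pseudocount of 1 or 0.01, a filter at a mean of 1 FPKM or none, quantile normalization, the same FPKM sum per library, the replicate number as a block, a fit of only the compared groups, no trend, limma-voom on the recovered reads, an adjusted p-value under 0.05, removal of the median of the 50 nearest genes (averaging 1 FPKM or more), and each library left out in turn. Promoters came from RefSeq (GRCm38.p6), taking for a gene with several starts the one nearest its 5′ end in the deposited table. Python 3.11.15, numpy 2.4.6, pandas 2.3.3 and matplotlib 3.10.9 were used.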

Additional observations from a re-analysis of the deposited data

How the results depend on the processing

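No called member changed direction under any alternative. Of the calls, 24 of 34 (OGD against control), 7 of 12 (OGD + A-485 against OGD) and 26 of 30 (OGD + A-485 against control) held in every setting, and all 123 member values kept their side of the threshold with pseudocount 0.01, a minimum mean of 1 FPKM, no filter, limma-voom on recovered reads and an adjusted p-value under 0.05. With pseudocount 1, 5 calls were lost, all of values near 0.5.

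With the median of the neighbouring genes removed, 3 members were called higher and 8 lower in OGD + A-485 against OGD, beside 6 and 6 with the authors' scaling, 5 and 7 with quantile normalization, 4 and 8 with the same FPKM sum per library and 5 and 5 with pseudocount 1. The same removal took the OGD calls of Rfc4 (-0.42), Cdc45 (-0.41), Pole (-0.435) and Rfc3 (-0.40) and added that of E2f2 (-0.61), and against control in OGD + A-485 it took those of Ccnd2 (0.25), Cdc45 (-0.45) and E2f1 (-0.39) and added that of Cdc6 (-0.51). The cause was not tested. When single libraries were dropped, the members called higher in OGD + A-485 against OGD ran from 4 (without OGD replicate 2) to 7, and the members called lower in OGD from 27 to 32.

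Values that changed sign were all uncalled, and the cause was not tested. Between OGD + A-485 and OGD, quantile normalization gave -0.15 for Cdk4, -0.024 for Ccnd1 and -0.046 for Cdc45. The same FPKM sum per library gave -0.093 for Cdk4, -0.073 for Cdc45, -0.035 for Cdkn1b and -0.057 for Mcm10. Removal of the neighbours' median gave -0.17 for Cdk4, -0.054 for Ccnd1, -0.041 for Cdc45, 0.20 for E2f1 and 0.066 for Chaf1a. With libraries left out, Cdk4 ran from -0.038 to 0.036, Cdc45 from -0.031 to 0.051, E2f1 from -0.12 to 0.029, Cdkn1b from -0.0092 to 0.13 and Mcm10 from -0.0022 to 0.095. Between OGD + A-485 and control, Cdt1 was -0.065 with quantile normalization, -0.10 with the same sum and -0.15 without the neighbours' median. E2f2 was -0.12 with the same sum and -0.077 without the neighbours' median, and ran from -0.019 to 0.086 with libraries left out. Ccnd1 was -0.029 without the neighbours' median.

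With the replicate number as a block the counts were 2 higher and 32 lower (OGD against control), 6 and 6 (OGD + A-485 against OGD) and 4 and 26 (OGD + A-485 against control), and no member changed its call. Deviations from the group means correlated by -0.0023 on average between libraries of the same number (from -0.046 to 0.039) and by 0.0012 between libraries of different numbers. The values thus show no sign of pairing by number, but they cannot tell whether libraries of the same number were prepared together.

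Fen1 had the fewest reads of the members, 13 in its lowest library, and 78.8% of its exon bases overlap Gm10143 on the opposite strand. The part of this overlap in the few reads of Fen1 was not tested. With libraries left out its log2 fold change ran from -1.64 to -0.90 in OGD against control and from 0.42 to 1.16 in OGD + A-485 against OGD. Its call in OGD was lost in the fit of only the groups compared and without the trend.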

Other observations

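Of 22 genes listed for p53, the factor that also drives Cdkn1a, 17 passed the filter. The list includes Trp53, the gene of p53 itself, and the others are its target genes. In OGD 8 of the 17 were called higher and 2 lower than in control, against 11.2% and 9.81% of all genes tested. Their median log2 fold change was 0.37. The stress protein Sesn2 rose from 8.18 to 18 FPKM (log2 fold change 1.13, limma adjusted p = 1.4e-05) and the kinase Plk2 from 46.1 to 89.1 FPKM (0.95), while Aen, a nuclease, fell from 5.12 to 1.94 FPKM (-1.38) and Gtse1 from 19.8 to 9.96 FPKM (-0.99). In OGD + A-485 against OGD 1 was called higher and 5 lower, against 12.2% and 13.4% of all genes tested, with a median of -0.07. Plk2 fell to 34.6 FPKM (-1.36) and Plk3 from 11.6 to 5.50 FPKM (-1.06), Aen rose to 2.77 FPKM (0.51), and Fas, at 0.715 and 1.42 FPKM, was not called. Against control, 5 were called higher and 4 lower in OGD + A-485 (median 0.05), beside 17.0% and 16.6% of all genes tested. The counts depend on the scaling. With the same FPKM sum per library those higher and lower were 5 and 2 in OGD (median 0.32), 0 and 5 in OGD + A-485 against OGD (-0.17) and 3 and 6 in OGD + A-485 against control (-0.11). With quantile normalization they were 7 and 2 (0.36), 2 and 4 (-0.12) and 4 and 4 (-0.08), so the sign of the last median turned under both.

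Among the microglial markers, the chemokine receptor Cx3cr1 rose from 5.92 to 15.7 FPKM in OGD (log2 fold change 1.39). With A-485 the adaptor Tyrobp rose from 80.0 to 242.8 FPKM (1.60) and the growth factor receptor Csf1r from 44.6 to 130.6 FPKM (1.55). Tmem119 was not called in any comparison. Against control, 10 of the 11 tested were called higher in OGD + A-485, beside 17.0% of all genes tested. Among the 5 tested markers of other brain cells and fibroblasts, Pecam1 was called higher in OGD, at 0.362 and 0.866 FPKM.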
